A study of Mus musculus with 4 samples.

Results

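The genes described here are the cyclins, the cyclin-dependent kinases (CDKs) with their inhibitors and binding proteins, the Cdc genes and the Mcm genes, measured in mouse liver on Affymetrix MG_U74Av2 arrays. A gene belonged when its single symbol in the platform annotation began with Ccn and a letter from a to l, Cdk and a digit or n, Cdc and a digit, or Mcm and a digit. The rule gave 68 of 8251 named genes, covered by 86 probe sets, and for each gene the probe set of largest average signal was read. There were 4 arrays, 1 per group: ADX at ZT14, ADX at ZT2, sham-operated at ZT14 and sham-operated at ZT2. ADX mice had both adrenal glands removed through the back under ketamine and xylazine and had NaCl in their drinking water, and sham-operated mice drank water. All were male C57BL/6 mice on standard chow, and zeitgeber time (ZT) counts hours from lights on. The series title concerns circadian oscillation in the liver, and ZT14 against ZT2 and ADX against sham are the comparisons of the design. The number of mice behind an array is not stated, so a difference between 2 single arrays cannot be set against replicate error.

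Cyclins switch on the CDKs, and the resulting kinases drive a cell through growth, DNA replication and mitosis. The D cyclins act with CDK4 in early growth phase, cyclins E and A act with CDK2 around DNA replication, and the A and B cyclins act with CDK1 in mitosis, while proteins of the Cdkn genes hold the kinases back. Mcm proteins form the helicase that opens DNA at replication origins, loaded with the help of CDC6 and activated with CDC45. Most hepatocytes of an adult liver are not dividing but can return to the cycle after tissue loss. Several of these symbols belong to proteins with other work, such as CDC42, a GTPase of the cytoskeleton, or CDC37, a partner of the chaperone HSP90.

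Each array gives a signal in arbitrary units, scaled here to a common trimmed mean, and a detection call of Present, Marginal or Absent. Signals of different probe sets are not on 1 scale, so no gene's signal is set against another's. Present calls covered 4302, 4487, 4345 and 4543 of the 8251 genes on the ADX ZT14, ADX ZT2, sham ZT14 and sham ZT2 arrays. The livers carried the hepatocyte list (7 of 7 genes found on the array were Present on all 4 arrays, with summed signals from 33097.2 to 34951.0) and the Kupffer and immune list (8 of 8 Present on at least 1 array, summed 820.3 to 1014). Of the bile duct markers, all 3 on the array were Present on none, as were the proliferation markers Mki67 and Top2a. Fewer cells of a type and less RNA per cell cannot be told apart in such tissue RNA.

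Of the 68 genes, 32 (47.1%) were Present on all 4 arrays, 12 on some and 24 (35.3%) on none, against 47.1% on all and 39.3% on none of all 8251 genes. By role the counts were small and were not tested. The atypical and transcription-related cyclins were Present on all 4 arrays in 5 of 6 cases, the kinases in 8 of 11, and the proteins that carry these symbols but work elsewhere in 9 of 12. The cyclins of the cycle phases were so in 2 of 9 cases, the CDK inhibitors in 1 of 8, and the replication factors in 2 of 10. Between these lay the CDK activators and binding proteins, with 3 of 5 Present on all 4 arrays and 2 on none, and the Cdc25 and ubiquitin ligase genes, with 2 of 7 on all 4 and 3 on none. Among the genes Present on no array were Cdk1, the mitotic kinase, Ccna2, its S and G2 phase cyclin, Ccne1, Cdc25a, the phosphatase that activates CDKs, Cdc20, an activator of the mitotic ubiquitin ligase APC/C, and the origin factors Cdc6, Cdc7, Cdc45, Mcm4, Mcm5 and Mcm6. A probe set without a Present call gives no proof that the transcript was lacking.

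**Figure D1:**
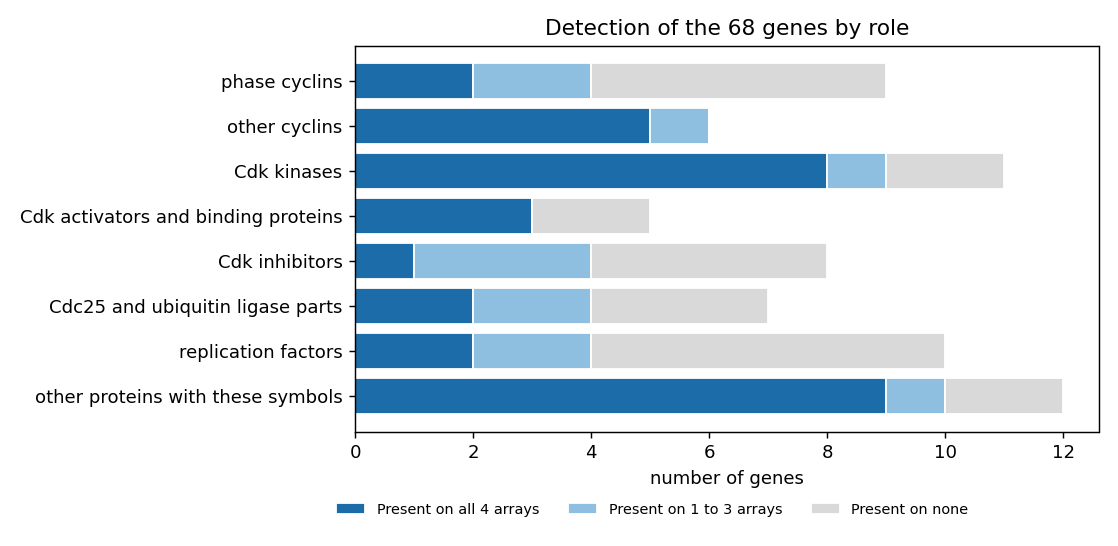
Number of genes (horizontal axis) in each of 8 role groups (vertical axis) that were Present on all 4 arrays, on 1 to 3 arrays or on none. Kinases (8 of 11) and other cyclins (5 of 6) are mostly Present on all 4 arrays, and replication factors (6 of 10) are mostly Present on none.

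A gene was called between 2 arrays when its signals differed at least 2-fold, after signals under 3.91 units were set to that floor, and the brighter array was Present. To pass 2-fold means both conditions. The rule is one of size, with no p-value. A signal without a Present call is uncertain, and so is a fold against such an array. Time of day was read in ADX and in sham livers separately, and these pairs share no array. In the ADX pair, 2 genes were higher at ZT14 (2.94% of the 68, against 1.54% of all 8251 genes) and 2 were lower (2.94%, against 1.27%), 5.88% in either direction against 2.81%. In the sham pair, 2 were higher (2.94%, against 1.82%) and 2 lower (2.94%, against 1.33%), 5.88% in either direction against 3.15%. With so few genes these shares are not set apart from those of all genes. The genes were Ccnb2 and Cdkn1c (higher) with Ccng2 and Mcm7 (lower) in ADX, and Ccnb2 and Ccnj (higher) with Ccng2 and Mcm7 (lower) in sham. Under quantile normalization the split was 1 higher and 4 lower in ADX and 1 higher and 2 lower in sham, and 1 higher and 2 lower in sham with signals as deposited. In ADX, quantile normalization added Cdc23 and Cdkn1a as lower (log2 -0.88 and -0.94 in the main setting). Ccnb2 no longer passed in these 3 splits. In the main setting, Ccng2, Mcm7 and Ccnb2 passed 2-fold in both pairs and in 1 direction, as did 0.8% of all genes.

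Ccng2 encodes cyclin G2, an unconventional cyclin known to slow the cell cycle rather than drive it. The gene lies at chr5:93267573-93276231 in GRCm38.p6. Its signal was 22.8 at ZT14 and 59.2 at ZT2 in ADX livers, and 23.4 at ZT14 and 115.8 at ZT2 in sham livers, Present on all 4 arrays. Both ZT14 arrays lay below both ZT2 arrays, and the sham ZT2 array was the highest. The signal was 2.59-fold lower at ZT14 in ADX (log2 -1.37) and 4.96-fold lower in sham (log2 -2.31). At ZT2 it was 1.95-fold lower in ADX than in sham (log2 -0.97), short of 2-fold, whereas the 2 ZT14 arrays differed by a log2 difference of -0.03. With signals as deposited, which put the median of all genes at -0.17 between these ZT2 arrays, Ccng2 passed 2-fold at ZT2.

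Mcm7, a subunit of the replicative helicase, had signals of 19.7 at ZT14 and 51.1 at ZT2 in ADX livers, and 25.9 at ZT14 and 55.9 at ZT2 in sham livers. The gene lies at chr5:138164583-138172111. The ADX ZT14 array was Absent and the other 3 were Present. Again both ZT14 arrays lay below both ZT2 arrays. The signal was 2.59-fold lower at ZT14 in ADX and 2.16-fold lower in sham. Between operations its log2 differences were -0.39 at ZT14 and -0.13 at ZT2. The other helicase subunits did not share this pattern past 2-fold: Mcm3, Present on all 4 arrays, had log2 day-night differences of -0.13 in ADX and -0.49 in sham, Mcm2 had 0.25 and -0.33 with 1 Present call, and Mcm4, Mcm5 and Mcm6 had none. Mcm10, an initiation factor outside the helicase ring, had signals of 82.9 and 77.4 in ADX and 117.3 and 104.6 in sham, at ZT14 and ZT2 in each case, so both ADX arrays lay below both sham arrays by less than 2-fold.

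Ccnb2, a B-type cyclin of mitosis, had signals of 25.9 at ZT14 and 12.6 at ZT2 in ADX livers, and 22.4 at ZT14 and 10.8 at ZT2 in sham livers. The gene lies at chr9:70407689-70421554. Both ZT14 arrays lay above both ZT2 arrays, and the ADX ZT2 array was Absent. The signal at ZT14 was higher by 2.06-fold in ADX and by 2.07-fold in sham, barely past the threshold. Quantile normalization brought the log2 differences to 0.97 and 0.85, under 2-fold, and with a floor of 20 units they were 0.38 and 0.16. Its kinase partner Cdk1 was Absent on all 4 arrays, at 7.69, 10.6, 10.8 and 4.07 in the order ADX ZT14, ADX ZT2, sham ZT14 and sham ZT2.

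**Figure D2:**
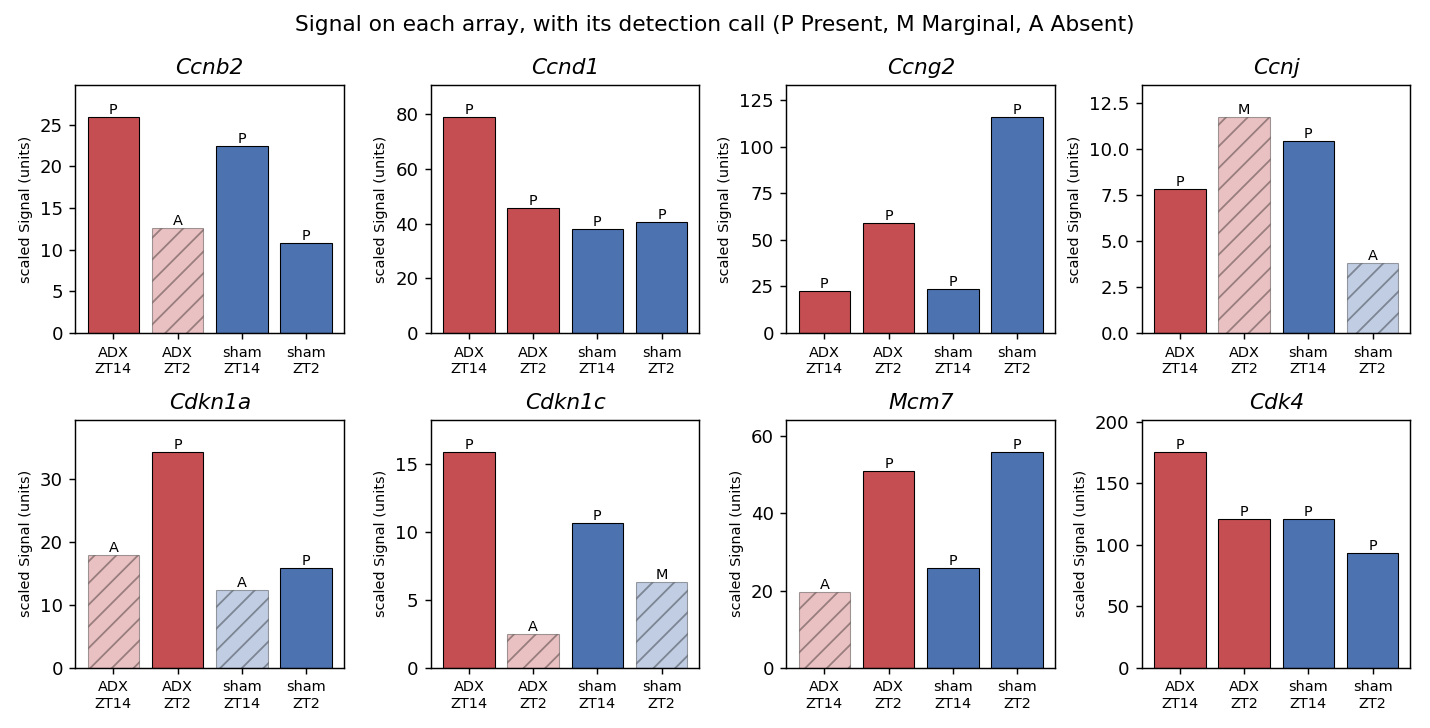
Scaled signal in arbitrary units (vertical axes, each from 0) on the ADX ZT14, ADX ZT2, sham ZT14 and sham ZT2 arrays for the 7 genes past 2-fold in any comparison and for Cdk4. Each bar is 1 array with its detection call, and pale hatched bars are not Present. Ccng2 and Mcm7 are lower on both ZT14 arrays than on both ZT2 arrays, and Ccnb2 is higher.

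The promoters of these 3 genes are shown because the genes passed 2-fold in both day-night pairs. They were taken from RefSeq (GRCm38.p6), 250 bases before to 50 after an annotated start: chr5:93267323-93267622 (plus strand) for Ccng2, chr5:138171834-138172133 and chr5:138171217-138171516 (both minus strand) for the starts of Mcm7 listed there, and chr9:70421505-70421804 (minus strand) for Ccnb2. Capitals mark matches, on either strand, to the clock E-box CACGTG, to the E2F site written as TTGGCGC, in another form as TTCGCGC or in yet another form as TTCCCGC, to the box of that name with the letters CCAAT, or to the cell cycle homology region with the letters TTTGAA.
Ccng2: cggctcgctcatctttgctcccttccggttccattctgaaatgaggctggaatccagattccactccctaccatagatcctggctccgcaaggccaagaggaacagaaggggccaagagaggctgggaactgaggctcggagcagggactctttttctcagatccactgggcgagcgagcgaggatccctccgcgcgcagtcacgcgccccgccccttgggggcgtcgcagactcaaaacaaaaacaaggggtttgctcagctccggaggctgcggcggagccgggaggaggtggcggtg
Mcm7, first start: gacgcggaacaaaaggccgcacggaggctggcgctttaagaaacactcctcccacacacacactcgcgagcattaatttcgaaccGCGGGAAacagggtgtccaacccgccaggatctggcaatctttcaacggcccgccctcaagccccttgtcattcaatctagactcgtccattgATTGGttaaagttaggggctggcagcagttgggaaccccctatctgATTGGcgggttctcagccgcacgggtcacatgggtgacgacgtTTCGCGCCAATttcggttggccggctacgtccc
Mcm7, second start: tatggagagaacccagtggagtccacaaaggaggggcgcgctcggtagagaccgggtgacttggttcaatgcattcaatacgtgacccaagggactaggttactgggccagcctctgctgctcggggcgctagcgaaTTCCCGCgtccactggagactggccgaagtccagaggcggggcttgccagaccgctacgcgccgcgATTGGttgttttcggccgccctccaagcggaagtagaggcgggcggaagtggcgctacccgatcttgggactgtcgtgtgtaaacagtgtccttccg
Ccnb2: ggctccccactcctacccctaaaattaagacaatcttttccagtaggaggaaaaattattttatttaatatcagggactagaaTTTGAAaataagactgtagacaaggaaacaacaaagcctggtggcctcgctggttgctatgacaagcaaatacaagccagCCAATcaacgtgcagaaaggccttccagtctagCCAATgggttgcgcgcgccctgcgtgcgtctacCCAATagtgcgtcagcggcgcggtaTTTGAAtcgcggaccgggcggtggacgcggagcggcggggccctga
The Ccng2 window held none of these letters. The first Mcm7 window held 3 E2F matches and 3 CCAAT boxes, of which 2 E2F matches and 1 CCAAT box overlap in 1 run near the start, and the second held 1 E2F match and 1 CCAAT box. The Ccnb2 window held 3 CCAAT boxes and 2 TTTGAA matches, and no E2F match. None of the 4 windows held CACGTG. Promoters of the same length were found for 58 of the 68 genes (68 windows). Over them CACGTG occurred in 7.35% (7.15% of all 32851 promoters), an E2F form in 25.0% (8.07%), CCAAT in 54.4% (37.4%) and TTTGAA in 19.1% (17.9%). Of the 11 windows of 9 replication factor genes, 8 held an E2F form. A match of letters is a description of the sequence and does not show that a factor binds there.

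Of the other cyclins of the cycle phases, Ccnd1, the cyclin D1 gene that couples growth signals to CDK4, had signals of 78.9 at ZT14 and 45.7 at ZT2 in ADX livers, and 38.0 at ZT14 and 40.7 at ZT2 in sham livers, all Present. The ADX ZT14 array stood above the other 3, which lay within 38.0 to 45.7. Its log2 day-night difference was 0.79 in ADX and -0.10 in sham, neither past 2-fold. Ccnf, an F-box protein that marks other proteins for ubiquitin, was lowest on that same array, at 34.3 against 59.5 on ADX ZT2 and 61.0 and 66.6 on sham ZT14 and sham ZT2. Ccnd3 was Marginal on 1 array and Present on none, and Ccna1 and Ccnd2 were Absent on all 4. Ccne2 was Present on 1 array, at 4.38 units, close to the floor. Ccnj, an atypical cyclin, had signals of 7.79 and 11.7 at ZT14 and ZT2 in ADX and 10.4 and 3.79 in sham. In sham, ZT14 exceeded ZT2 by 2.65-fold, with the Absent ZT2 signal set to the floor. Its log2 difference in ADX was -0.58. All of its signals lie under 20 units.

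Among the kinases, no gene passed 2-fold between the times, and 8 of 11 were Present on all 4 arrays. The log2 day-night differences of those 8 ranged from -0.14 to 0.60 in ADX and from -0.46 to 0.74 in sham. Cdk4 had signals of 175.6 at ZT14 and 121.1 at ZT2 in ADX livers, and 121.2 at ZT14 and 93.5 at ZT2 in sham livers. ADX ZT14 was the highest array and sham ZT2 the lowest, with log2 differences of 0.54 in ADX and 0.37 in sham between the times. Its other probe set, Present on all 4 arrays, gave 0.64 in ADX and 0.15 in sham. Cdk18, a kinase of the PCTAIRE family, had signals of 79.2 and 55.9 in ADX and 94.1 and 56.4 in sham at ZT14 and ZT2, and Cdk2, the S phase kinase, had 30.7 and 23.9 in ADX and 28.7 and 19.3 in sham. In both genes each ZT14 array lay above each ZT2 array. Cdk7, which activates other CDKs and belongs to the transcription factor TFIIH, had log2 differences of 0.60 in ADX and -0.46 in sham. Cdk8, a kinase of the Mediator complex, likewise had 0.41 in ADX and -0.38 in sham, while its partner Ccnc had -0.49 and 0.07. Cdk9, the kinase that releases paused RNA polymerase II, was at 63.4 and 65.4 in ADX and 80.2 and 59.2 in sham at ZT14 and ZT2, with sham ZT14 the highest. Cdk5, best known for its work in neurons, was lower at ZT14 by small margins, at 94.1 and 103.9 in ADX and 81.1 and 92.6 in sham.

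The CDK inhibitor genes had few Present calls. Cdkn1c, the imprinted inhibitor p57, had signals of 15.9 at ZT14 and 2.50 at ZT2 in ADX livers, and 10.7 at ZT14 and 6.29 at ZT2 in sham livers. It was Present on both ZT14 arrays, Absent on ADX ZT2 and Marginal on sham ZT2. In ADX, ZT14 exceeded ZT2 by 4.07-fold, with the Absent ZT2 signal set to the floor. In sham the log2 difference was 0.76, under 2-fold. With a floor of 20 units the ADX difference was 0.00. Cdkn2c, the inhibitor p18 of the CDK4 kinases and the only CDK inhibitor gene Present on all 4 arrays, differed by 0.30 in ADX and 0.36 in sham on the log2 scale. Cdkn1b, the inhibitor p27, stayed at 5.66 units or less on every array. Cdkn2a, Cdkn2b, Cdkn2d and Cdkn3 were Present on none.

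Several further genes Present on all 4 arrays differed little between them. Cdc37 ranged from 142.1 to 171.0 and Cdc123, a factor in the assembly of the translation initiation factor eIF2, from 135.6 to 147.1. Ccnl2, a cyclin of splicing kinases, ranged from 151.7 to 169.3, and Cdk2ap1, a CDK2-binding protein, from 96.6 to 108.2. More variable was Ccni, an atypical cyclin, which had 167.7 at ZT14 and 221.8 at ZT2 in ADX, and 183.5 at ZT14 and 216.2 at ZT2 in sham. Cdk2ap2, a relative of Cdk2ap1, had 163.4 at ZT14 and 215.9 at ZT2 in ADX, and 181.7 at ZT14 and 199.9 at ZT2 in sham. In both of these genes each ZT14 array lay below each ZT2 array, under 2-fold. Another probe set of Ccni, Present on 3 arrays and Marginal on sham ZT2, went the same way in ADX (log2 -0.41) and the opposite way in sham (0.68), at 11.4 at ZT14 and 7.12 at ZT2. Cdc42se2, which binds CDC42, ran the other way, at 25.1 and 19.4 in ADX and 28.0 and 15.8 in sham at ZT14 and ZT2, with log2 differences of 0.37 and 0.83.

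Over the 32 genes Present on all 4 arrays, log2 day-night differences spanned -1.37 to 0.79 in ADX and -2.31 to 0.83 in sham, and 26 and 28 of them lay within 0.5 of zero (81.2% and 87.5%, against 83.4% and 81.7% of 3889 genes Present on all 4 arrays). The medians were -0.01 in ADX and -0.03 in sham, against 0.00 and -0.01 over those 3889 genes. The sign was the same in both pairs for 21 of 32 genes (65.6%, against 63.1% of genes). Across the 32 genes the 2 sets of differences had a Pearson r of 0.62, and of 0.30 without Ccng2, against 0.49 over the 3889 genes. The genes share the arrays, so this is a description.

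**Figure D3:**
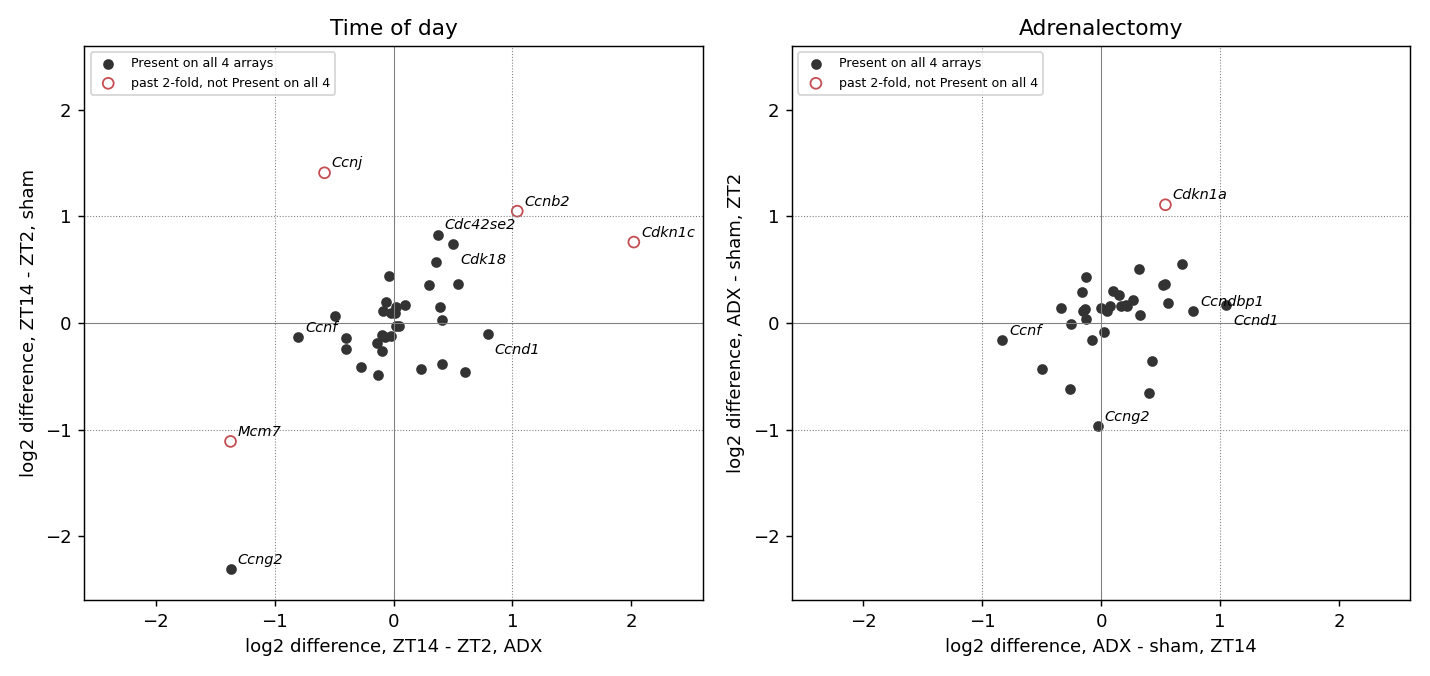
Log2 differences of single genes in pairs of comparisons that share no array. Left, ZT14 minus ZT2 in ADX (horizontal) against the same in sham (vertical), and right, ADX minus sham at ZT14 (horizontal) against the same at ZT2 (vertical). Filled points are the 32 genes Present on all 4 arrays, open points are genes past 2-fold that were not, and dotted lines mark 2-fold. Ccng2 and Mcm7 lie at the lower left of the day-night panel and Ccnb2 at its upper right, and no gene is past 2-fold on both axes of the panel of ADX against sham.

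The comparison of ADX with sham gave 1 call at each time. Only ADX mice had NaCl in their drinking water, so adrenalectomy and salt cannot be told apart here. At ZT14, 1 of the 68 genes was higher in ADX (1.47%, against 1.13% of all genes) and 0 were lower (against 0.776%), with 1.9% of all genes called in either direction. The gene was Ccnd1, at 78.9 in ADX and 38.0 in sham, 2.07-fold higher, while at ZT2 its signals were 45.7 in ADX and 40.7 in sham. The call ended with signals as deposited (log2 0.93) and when its other probe set, Absent on all 4 arrays, was averaged in (0.64). Haemoglobin RNA also differed between the 2 ZT14 arrays: Hba-a1 had a signal of 1788.8 in ADX and 873.8 in sham. At ZT2 its signals ran the other way, at 1260.9 in ADX and 1552.4 in sham. Alas2, of the same red cell list, had 170.9 in ADX and 178.3 in sham at ZT14, and Epor was Present on no array. The part of blood in the Ccnd1 difference was not tested.

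At ZT2, 1 gene was higher in ADX (1.47%, against 0.861%) and 0 were lower (against 0.448%), with 1.31% of all genes called in either direction. The gene was Cdkn1a, which encodes p21, a CDK inhibitor induced by p53. Its signal was 34.3 in ADX and 15.9 in sham at ZT2, both Present, 2.16-fold higher. At ZT14 the signals were 17.9 in ADX and 12.3 in sham, both Absent, so ADX ZT2 was the highest of the 4. The other probe set of Cdkn1a was Absent throughout and gave -0.49 at ZT2, and with both averaged the log2 difference was 0.31. With a floor of 20 units it was 0.78, and with signals as deposited 0.94 while Ccng2 was lower past 2-fold, so that the split was 0 higher and 1 lower.

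Smaller differences kept 1 sign at both times. Cdkn2aipnl, a gene named for its likeness to a partner of the Cdkn2a product, had signals of 27.8 in ADX and 17.3 in sham at ZT14, and 33.6 in ADX and 22.9 in sham at ZT2. Both ADX arrays lay above both sham arrays. The same held for the chosen probe set of Cdk5rap3, a CDK5-binding protein of the ufmylation pathway, at 187.0 in ADX and 150.2 in sham at ZT14 and 198.6 in ADX and 139.3 in sham at ZT2, and for Ccng1, a target of p53, at 26.7 against 18.6 and 28.6 against 22.3. Cdc42 had 230.3 in ADX and 198.0 in sham at ZT14, and 242.3 in ADX and 216.4 in sham at ZT2. All 4 of these stayed under 2-fold. Over the 32 genes the median log2 difference between ADX and sham was 0.09 at ZT14 and 0.14 at ZT2, against 0.02 and 0.00 over the 3889 genes, and 17 genes were higher at both times and 6 lower at both. The sign was thus the same for 23 of 32 (71.9%, against 53.2% of the 3889 genes), and the differences at the 2 times had a Pearson r of 0.32 over the 32 genes and 0.09 over the 3889, as a description. The roles differed in this. Proteins that carry these symbols but work elsewhere were higher in ADX in 8 of 9 cases at each time. Both replication factors Present on all 4 arrays, Mcm3 and Mcm10, were lower in ADX at each time. These counts by role were not tested. Signals as deposited put the median of all genes at -0.11 at ZT14 and -0.17 at ZT2.

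**Figure D4:**
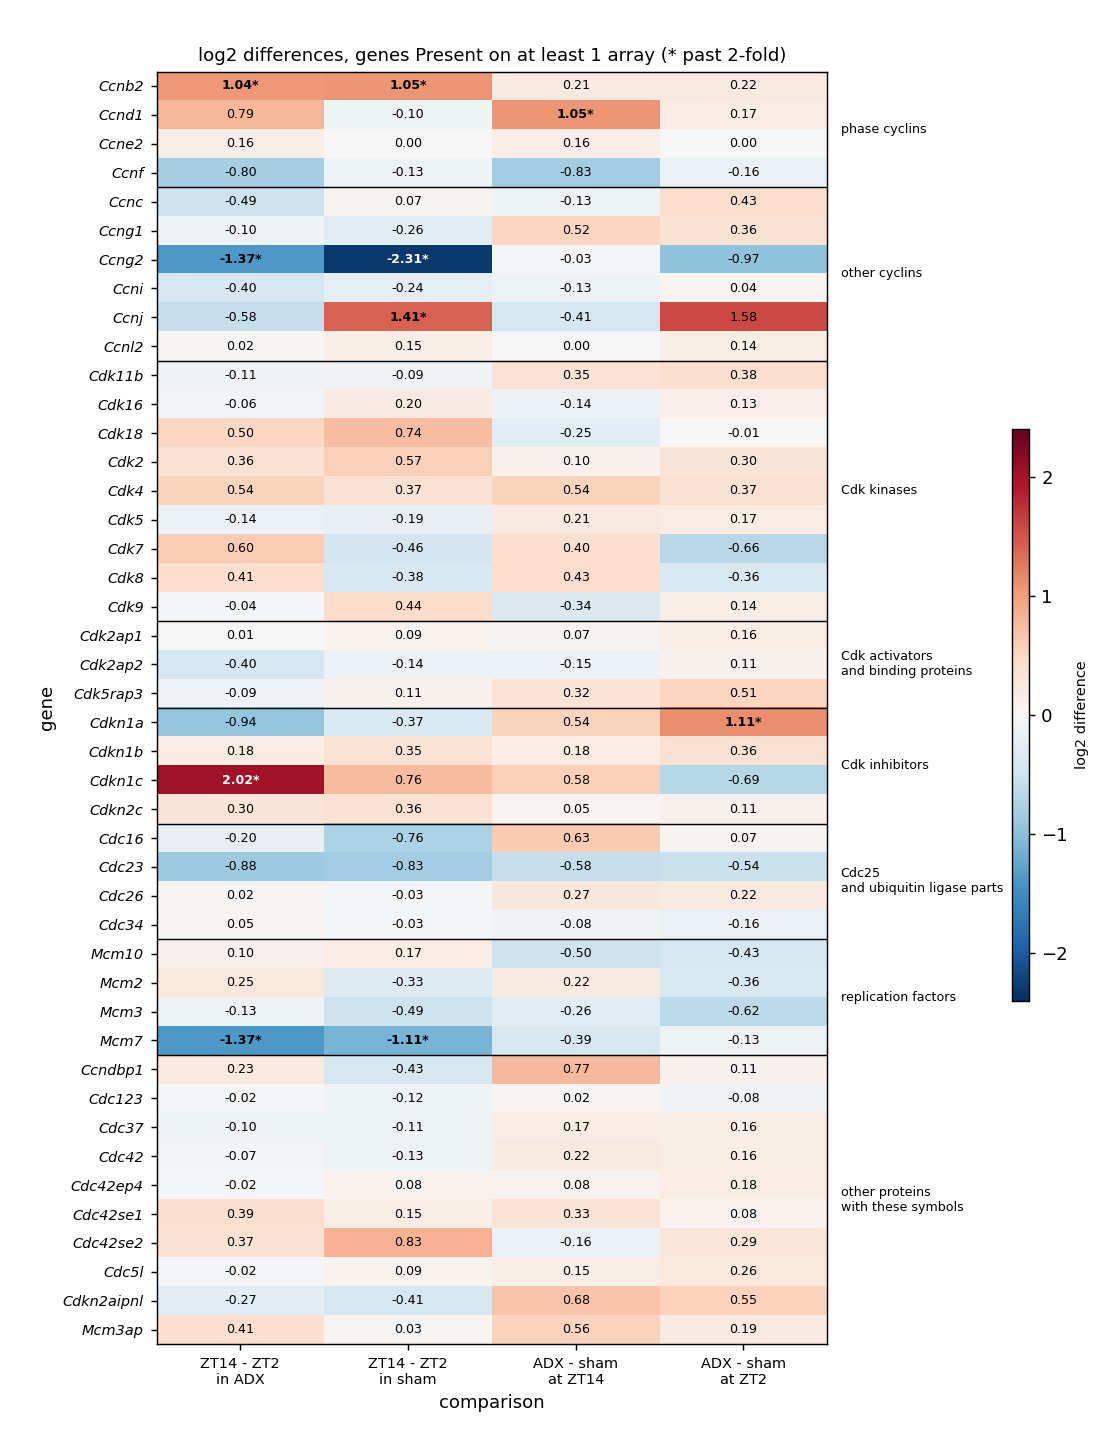
Log2 differences (colour and printed value) of the 44 genes Present on at least 1 array (rows, by role) in the 4 comparisons (columns). An asterisk marks a gene past 2-fold, and most cells lie near 0.

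Among the APC/C subunits and ubiquitin enzymes, Cdc34, a ubiquitin-conjugating enzyme, had signals between 156.2 and 174.0 on all 4 arrays, and Cdc26, an APC/C subunit, had 108.3, 106.5, 89.9 and 91.5 on ADX ZT14, ADX ZT2, sham ZT14 and sham ZT2. Cdc23, another APC/C subunit, had 8.75 at ZT14 and 16.1 at ZT2 in ADX, and 13.1 at ZT14 and 23.3 at ZT2 in sham, and was Present on the ZT2 arrays only. Its log2 day-night differences of -0.88 and -0.83 were short of 2-fold, though quantile normalization took the ADX difference past it. Its other probe set was Absent on all 4 arrays and gave 0.00 and -0.24. Cdc16, an APC/C subunit as well, had 44.8 at ZT14 and 51.6 at ZT2 in ADX, and 28.9 at ZT14, where it was Absent, and 49.0 at ZT2 in sham. Past 2-fold in size but without a Present call on the brighter array were 20 differences in 11 genes, which were not called. Cdc25a is an example, at 18.6 on sham ZT14 and 3.15 on sham ZT2, both Absent.

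Taking both operations as samples of a time, an additive fit of time and operation with limma tested 42 of the 68 genes, among 5872 probe sets Present on at least 2 arrays. It has 1 residual degree of freedom. By limma with Benjamini-Hochberg adjustment over all 5872, 0 of the 42 genes had an adjusted p under 0.05 for time (0.0341% of probe sets did). For operation 0 did (0% of probe sets). At an unadjusted p under 0.05 the fit held 10 of 42 genes for time (23.8%, against 13.2% of probe sets), 6 higher and 4 lower at ZT14, and 5 for operation (11.9%, against 5.6%). Mcm7 had the smallest p for time in limma, with a log2 difference of -1.24 (SE 0.17, adjusted p = 0.199). It was followed by Ccnb2 at 1.04 (SE 0.15, limma adjusted p = 0.215) and Ccng2 at -1.84 (SE 0.28, limma adjusted p = 0.226), each with the same sign in both pairs. With a variance trend on mean signal, limma called Ccng2 and Mcm7 of the 42 genes for time, among 154 of the 5872 probe sets. For operation the smallest was Cdkn1a, at 0.83 (SE 0.21, limma adjusted p = 0.83). The probe set read was higher in ADX at both times, but was Absent on both ZT14 arrays. The other probe set of Cdkn1a, Absent on all 4 arrays, was lower in ADX, at -0.39 at ZT14 and -0.49 at ZT2. Cdk4 was among the unadjusted genes of both effects, at 0.45 (SE 0.16) for each. Its other probe set, Present on all 4 arrays, did not keep 1 sign between operations. It gave log2 differences of ADX against sham of 0.36 at ZT14 and -0.14 at ZT2. The other unadjusted genes for time were Cdc23, Cdkn1c, Cdk18, Cdc42se2, Cdkn1a and Cdk2, and for operation Cdkn2aipnl, Cdc23 and Mcm10. The next in order for operation were Ccng1 at 0.44 (SE 0.16), Cdk5rap3 at 0.41 (SE 0.16), Mcm3 at -0.44 (SE 0.18), Cdk11b, a splicing-related kinase, at 0.37 (SE 0.15) and Ccnd1 at 0.61 (SE 0.27). The probe set read for Cdk11b was Present on 2 arrays. Another probe set of Cdk11b, Present on all 4 arrays, went the other way, with log2 differences of -0.09 at ZT14 and -0.25 at ZT2. The 2 arrays of a time differ by operation and are no replicates. The limma p-values rest on how far these 4 arrays depart from additive effects, with variance shared across probe sets. A time difference that itself differs between operations counts as error there, and scatter between mice is not measured.

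A list of 79 other genes of the cycle, of which 64 were on the array, was detected much like the 68: 40 (62.5%) were Present on at least 1 array, against 64.7% of the 68 and 60.7% of all genes. The list holds E2F and Rb factors, replication enzymes, checkpoint and mitotic genes. In ADX 1 of the 64 was higher at ZT14 (against 1.54% of all genes) and 0 lower (1.27%), and in sham 2 were higher (1.82%) and 2 lower (1.33%). Wee1, the kinase that restrains CDK1 and a known clock output, was the one gene higher in both, with signals of 22.6 and 5.32 at ZT14 and ZT2 in ADX and 19.3 and 8.70 in sham. Its signal was Absent on ADX ZT2 and Marginal on sham ZT2. In sham Mad2l1, a spindle checkpoint gene, was the other higher one, and Rb1, the retinoblastoma gene, and Btg1, an antiproliferative gene, were lower. Between operations at ZT14, 1 of the 64 was higher in ADX (Rb1, against 1.13% of all genes) and 4 were lower (Myc, Mad2l1, Orc1 and Hus1, against 0.776%). At ZT2, 0 were higher (against 0.861%) and 2 lower (Myc and Plk1, against 0.448%). Every gene lower in ADX was Absent on the ADX array of that comparison. Myc, which promotes growth, was lower in ADX both times. Its signals were 4.80 in ADX and 11.4 in sham at ZT14, and 3.96 in ADX and 11.2 in sham at ZT2. Both ADX signals were Absent and lay near the floor of 3.91 units, and all its signals lay under 20 units. The size of these differences is therefore uncertain. Pcna, the sliding clamp of replication, stayed between 55.3 and 64.2 on all 4 arrays.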

How the data were processed

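RNA from livers of male C57BL/6 mice was read on 4 MG_U74Av2 arrays, 1 for each group named in the sample titles. Per the file headers, the deposited intensity of a probe set is its Affymetrix Signal on a linear scale. Detection calls and the detection p-value are deposited beside it, and only the calls were used. No source used here gives the software or scaling target. The deposited series table holds the same intensities (largest difference 0).

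Arrays (2% trimmed means 55.7 to 64.2) were scaled to a common trimmed mean, floored at 3.91 units (the median Absent signal, while the lowest Present signal was 3.05) and put on the log2 scale, without 66 control probe sets. Names came from the platform annotation, and all 68 genes matched RefSeq GRCm38.p6. Genes were named when past 2-fold, among the 10 of highest mean signal or the 10 of smallest p per effect, or in listed classes (A, B, D, E, F and G cyclins, Cdkn genes, main kinases, Mcm and main Cdc genes). Exceptions named after their values were seen are Ccnc, Cdc16 and Cdc26. The members and lists were chosen with earlier results of these data known. All arrays share 1 hybridisation day, so no batch could be separated. limma 3.58.1 (R 4.3.3) fitted time and operation additively, and NumPy 2.4.6 and pandas 2.3.3 (Python 3.11.15) did the rest. The additive fit and the 2-fold size cut were tested on simulated data modelled on probe sets Present on all 4 arrays. The number of arrays limits the precision. Alternatives were other scalings, floors, probe set rules, detection filters and fits.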

Additional observations from a re-analysis of the deposited data

Results flagged for a closer look

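Ccnj was 1.41 higher on the log2 scale at ZT14 in sham livers and passed 2-fold, while its log2 difference in ADX livers was -0.58, the opposite sign. With 1 array per group this difference between the pairs was not tested. All 4 signals lay under 12 units, between 3.79 and 11.7, and 1 array was Absent and 1 Marginal.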

How the results depend on the processing

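Ccng2 and Mcm7 passed 2-fold at ZT14 against ZT2 in both pairs under each alternative that could be run, with log2 differences of -1.44 to -1.37 (ADX) and -2.39 to -2.31 (sham) for Ccng2, and -1.44 to -1.35 and -1.19 to -1.11 for Mcm7. With a floor of 20 units 2 genes passed in ADX and 2 in sham, in place of 4 each, and over genes Present on all 4 arrays 1 each (Ccng2), since fewer genes can be called. Between operations at ZT14, 0 genes passed with signals as deposited or with all probe sets averaged. Ccnd1, the gene called in the main setting, then had log2 differences of 0.93 and 0.64. At ZT2, 2 passed with a floor of 1 unit (Cdkn1a and Cdkn1b), and 0 with a floor of 20 units, with all probe sets averaged or over genes Present on all 4 arrays. No call changed sign. Medians over genes Present on at least 1 array stayed between -0.05 and 0.01 (time, ADX), -0.11 and 0.00 (time, sham), 0.01 and 0.16 (operation, ZT14) and -0.02 and 0.15 (operation, ZT2). With a variance trend the additive limma fit called 2 of 42 members for time (Ccng2 and Mcm7), among 154 of 5872 probe sets. It called 0 members for time under each other alternative, and 0 for operation under each. The additive fit holds the other factor as a block, and without that block limma called 0 members for either effect. The labels give no replicate numbers to pair by, and leaving out an array leaves no residual degrees of freedom. Dim signals limit Ccnb2, Ccnj, Cdkn1a and Cdkn1c, whose calls ended with a floor of 20 units.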
